A study of Homo sapiens with 12 samples.

Results

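The effect of knocking down CD20, the product of MS4A1, was examined in Raji, a cell line established from a human Burkitt lymphoma of B cell origin, which carries Epstein-Barr virus. Of the 12 arrays in the series, 6 were compared, chosen by the hairpin named in the labels. They were 3 arrays of cells with a hairpin against MS4A1 (shMS4A1, hairpins A, B and C, 1 array each) and 1 array of cells with non-targeting shRNA (shNTC) whose label follows the same naming scheme, called set 1 here. The other 2 were shNTC arrays of the second naming scheme, set 2, and were compared only to check the single control. The series also holds 2 arrays of CREM knockdown (shCREM, set 1) and 4 of MBD2 knockdown (set 2). All 12 arrays entered the normalization and the fit's estimate of spread. All of these cells had been infected with a hairpin construct, were kept in puromycin for 48 h, and gave RNA 3 days after transduction. The labels do not say whether arrays of one group represent independent cultures. The p-values therefore measure only the spread between arrays of a group over all 12 arrays fitted. Within shMS4A1 and shCREM that spread is between different hairpins. Within the other repeated groups it is between arrays of one construct and may be technical. Raji is 1 tumour line, and each hairpin against MS4A1 was measured on a single array.

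CD20 is a four-pass membrane protein that B cells carry until differentiation into plasma cells. It lies close to the B cell antigen receptor in the plasma membrane. Therapeutic antibodies such as rituximab bind it, and it has been linked to calcium entry after receptor stimulation. NF-kB transcription factors act downstream of antigen receptor, CD40 and TNF receptor signals in B cells, and the viral membrane protein LMP1 drives the same pathway. Their known targets include CCR7, the receptor that guides lymphocytes to lymph nodes, the cytokine gene LTA and the adaptor gene TRAF1. Interferon-stimulated genes, of which CXCL10 and the IFIT family are members, are switched on through STAT and IRF factors.

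Levels are log2 normalized intensities after background correction, so that 1 unit is a 2-fold difference, and levels of different probes are not compared. A gene was measured if its probe had a detection p-value under 0.05 on at least 2 of the 6 arrays, which left 11849 genes. Each array had 18652 to 20483 detected probes over the series, and the shNTC array of set 1 had the most. Median raw intensity was 102 to 104.13 on the shMS4A1 arrays, 104.87 on the shNTC array of set 1, and 76.92 and 83.64 on those of set 2. B cell identity was checked first: at least 4 of the 5 B cell markers on the array, MS4A1 among them, were detected on each of the 6 arrays. Their linear intensities were summed and put on the log2 scale, as for the other marker lists below. This summed level was 14.04 to 14.07 under shMS4A1, 13.79 in the shNTC of set 1 and 13.81 to 13.91 in set 2. Such a sum mostly follows the marker with the highest signal, here CD79B, which read 13.61 to 13.66 under shMS4A1. Of the markers of other cells, 1 to 4 per list were detected on an array. IL7R, on the T and NK cell list, read 8.67 to 9.18 under shMS4A1, 8.84 in the shNTC of set 1 and 8.32 and 8.49 in those of set 2. COL1A1, on the fibroblast list, read 5.87, 5.01 and 5.91 under the hairpins, 6.92 in set 1 and 5.87 and 5.49 in set 2, and its part in the results was not tested. The 9 T and NK cell markers summed to 9.18 to 9.58, 9.42 and 9.11 in that order, with CD3E and CD8A detected on no array. The 7 myeloid markers summed to 7.37 to 7.59, 7.59 and 7.40 to 7.51, with MPO and S100A9 on no array, and the 7 epithelial and fibroblast markers to 7.39 to 7.87, 8.02 and 7.52 to 7.60, with KRT8 and LUM on none.

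MS4A1 was lower under all 3 hairpins than in the control of the same set. The level read by the probe with the highest mean, ILMN_2401714, was 6.16 under hairpin A, 6.03 under B and 6.20 under C, against 8.06 in the shNTC array of set 1. The hairpins lay within a narrow range of one another and all below that control. The difference was −1.93 ± 0.30 (standard error of the limma fit, 3 arrays against 1), 3.82-fold lower, with a limma adjusted p of 0.0130. The second probe, ILMN_1776939, read 6.19, 6.17 and 6.18 under the hairpins and 7.35 in the control. Its difference, −1.17 ± 0.32, had the same sign and did not pass when probes were fitted singly (limma adjusted p = 0.304). The third, ILMN_1697830, was detected on 2 of the 6 arrays and differed by −0.37 (limma adjusted p = 0.949).

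The shNTC arrays of set 2 did not carry as much MS4A1 as the control of set 1. They read 6.65 and 6.29 with ILMN_2401714, just above the shMS4A1 arrays, and 7.11 and 6.24 with ILMN_1776939. With the first probe, the set 2 controls differed from the set 1 control by −1.60 (limma adjusted p = 0.00814), and shMS4A1 differed from the set 2 controls by −0.34 (limma adjusted p = 0.343). The 2 shCREM arrays, which carry hairpins against another gene and belong to set 1, read 8.65 and 8.74 with this probe. The size of the MS4A1 knockdown therefore depends on which control it is set against, and naming set and array cannot be told apart for the single control. The call was also lost with the mean of a gene's probes (−1.16, limma adjusted p = 0.178) and with sets pooled (−0.87, limma adjusted p = 0.164). Without hairpin B it was lost at −1.89 (limma adjusted p = 0.0588), and without hairpin C at −1.97 (limma adjusted p = 0.0531).

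**Figure D1:**
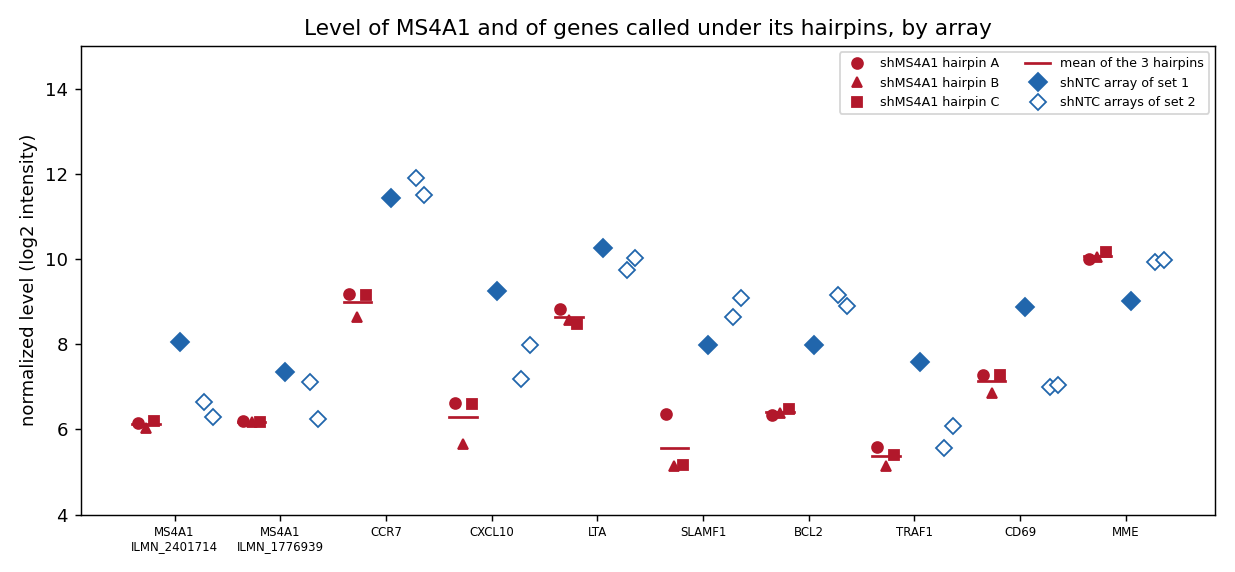
Normalized level (log2 intensity, vertical axis) of both detected MS4A1 probes and 8 genes called under shMS4A1, with 1 symbol per array, filled for set 1 and open for the shNTC arrays of set 2, and a bar at the mean of the 3 hairpins. CCR7, LTA, SLAMF1 and BCL2 lie below all 3 shNTC arrays under each hairpin, while for MS4A1 (ILMN_2401714), TRAF1 and CD69 at least 1 set 2 control lies close to or among the hairpins.

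Across the 11849 genes, 26 passed a limma adjusted p of 0.05 between shMS4A1 and the shNTC of set 1. Of these, 21 were lower (0.177% of genes tested) and 5 were higher (0.0422%), each on 3 of 3 hairpin arrays. At an unadjusted p under 0.05 there were 745 genes, 515 of them lower. The fallen genes included the chemokine and chemokine receptor genes CXCL10 and CCR7, the cytokine genes LTA and EBI3, the survival gene BCL2 and the interferon-induced IFIT2 and IFIT3. Over all genes the median difference was −0.01. In bulk RNA of this kind, fewer cells that express a gene and less RNA per cell cannot be told apart.

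**Figure D2:**
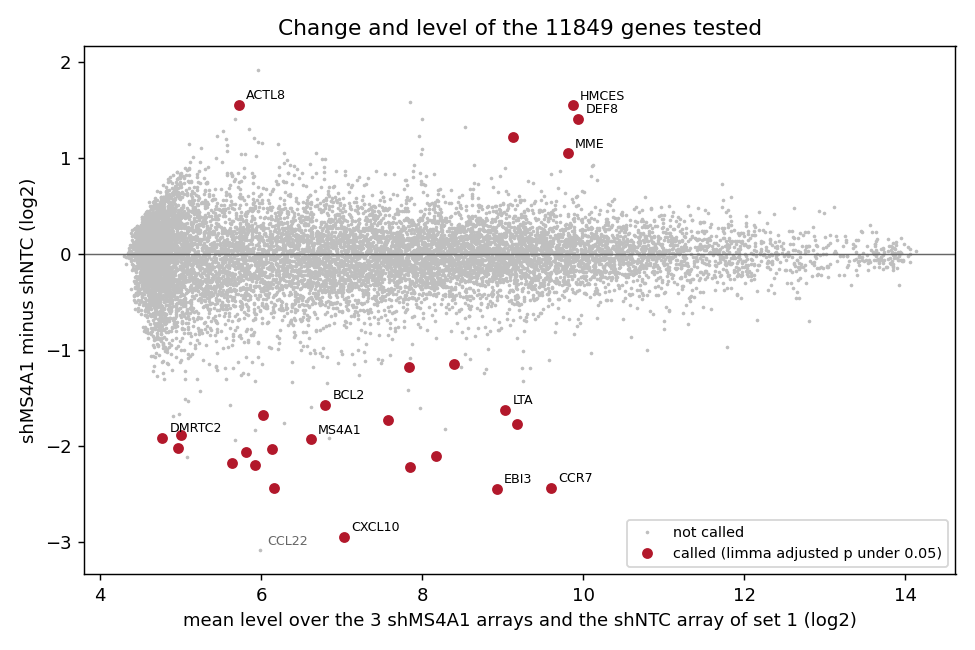
Difference between the mean of the 3 shMS4A1 arrays and the shNTC array of set 1 (log2, vertical axis) against the mean level over these 4 arrays (log2 intensity, horizontal axis), 1 dot per gene, with the 26 genes past the limma threshold in red. The called genes lie at low and middle levels with none among the highest, 21 of them lie below 0, and CCL22 has the lowest value of all genes without passing.

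Genes of lymphocyte migration were among the largest falls. CXCL10, a chemokine that attracts activated T cells, read 6.63, 5.65 and 6.59 under hairpins A, B and C and 9.24 in the shNTC of set 1, with 7.19 and 7.99 in those of set 2. All hairpins lay below all 3 controls, and the control of set 1 was the highest. The difference from the set 1 control was −2.95 ± 0.41, 7.72-fold lower (limma adjusted p = 0.0091), and −1.30 from the set 2 controls (limma adjusted p = 0.0098).

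CCR7 read 9.18, 8.63 and 9.16 under the hairpins, 11.43 in the set 1 control and 11.90 and 11.51 in the set 2 controls. The 3 controls lay close together, more than 2 units above every hairpin. CCR7 fell by 2.44 ± 0.24, 5.42-fold (limma adjusted p = 0.000345), and the difference from the set 2 controls was −2.71. RGS1, an inhibitor of G protein signalling that dampens chemokine responses, read 7.48, 6.63 and 7.75 against 9.51 in set 1 and 10.29 and 9.74 in set 2 (−2.22 ± 0.33, limma adjusted p = 0.0110). It too was lower than every control on every hairpin.

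CCL22, a chemokine that recruits regulatory T cells, read 5.52, 4.80 and 5.32 under the hairpins against 8.30 in the set 1 control and 6.74 and 7.13 in the set 2 controls. Its difference of −3.09 ± 0.66 was the lowest of all genes and did not pass (limma adjusted p = 0.0936). Of the 36 chemokine, chemokine receptor and RGS genes listed, 20 were measured, 3 fell and none rose. Of all genes tested 0.177% fell and 0.0422% rose. The median difference of the 20 was −0.39, against −0.01 over all genes.

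Cytokine and TNF family genes formed a second group. LTA, which encodes lymphotoxin alpha, read 8.84, 8.56 and 8.48 against 10.25 in the set 1 control and 9.73 and 10.02 in set 2. The controls lay closer to one another than to the hairpins, and above all of them. The fall was 3.09-fold (−1.63 ± 0.21, limma adjusted p = 0.00535), and the difference from the set 2 controls was −1.25. EBI3, the beta chain shared by IL-27 and IL-35, read 8.61, 8.10 and 8.24 against 10.76 in set 1 and 9.85 and 10.58 in set 2 (−2.45 ± 0.41, limma adjusted p = 0.0192). It was lower on each hairpin than on any control.

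TRAF1, an adaptor of TNF receptors, behaved otherwise. It read 5.58, 5.14 and 5.41 against 7.57 in the set 1 control (−2.20 ± 0.33, limma adjusted p = 0.0110), and the set 2 controls, at 5.55 and 6.08, overlapped the hairpins. From those controls it differed by −0.44 (limma adjusted p = 0.251), and a second TRAF1 probe, ILMN_2171789, differed from the set 1 control by −0.01. In the list of TNF ligands, receptors and TRAFs 29 of 36 genes were measured, 2 fell and none rose, with a median of −0.20. Among cytokines and their receptors 21 of 30 were measured, 1 fell and none rose, with a median of −0.41. The shares of all genes that fell and rose were 0.177% and 0.0422%.

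For printing, promoter sequence was sought for a chosen set, MS4A1, CCR7, CXCL10, LTA, TRAF1 and EBI3, and was available for the last 4. It is shown because the letters can be set beside the falls against the set 1 control. The windows are the 250 bases before the annotated gene start in RefSeq (GRCh38.p14), read along the gene's own strand from 5′ to 3′. They were searched on both strands for GGNNNTTCC, a short form of the NF-kB site, and GAAANNGAA, a short form of the interferon-stimulated response element. Capitals mark the matches.
CXCL10 promoter, chr4:76023498-76023747, minus strand: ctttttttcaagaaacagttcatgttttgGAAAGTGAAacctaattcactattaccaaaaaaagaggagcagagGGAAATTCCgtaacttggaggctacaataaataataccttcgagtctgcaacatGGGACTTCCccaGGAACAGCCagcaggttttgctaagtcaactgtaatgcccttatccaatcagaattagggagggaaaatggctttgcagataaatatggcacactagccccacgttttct
EBI3 promoter, chr19:4229273-4229522, plus strand: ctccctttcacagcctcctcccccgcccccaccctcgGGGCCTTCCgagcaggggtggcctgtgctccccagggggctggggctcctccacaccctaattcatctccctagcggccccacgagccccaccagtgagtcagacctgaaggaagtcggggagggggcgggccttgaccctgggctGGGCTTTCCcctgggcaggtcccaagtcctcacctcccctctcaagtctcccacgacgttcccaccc
LTA promoter, chr6:31571849-31572098, plus strand: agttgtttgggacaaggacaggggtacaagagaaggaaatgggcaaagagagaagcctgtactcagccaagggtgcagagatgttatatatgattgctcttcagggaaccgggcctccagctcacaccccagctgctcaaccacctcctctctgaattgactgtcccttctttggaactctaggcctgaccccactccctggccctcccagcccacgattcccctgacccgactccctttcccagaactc
TRAF1 promoter, chr9:120929172-120929421, minus strand: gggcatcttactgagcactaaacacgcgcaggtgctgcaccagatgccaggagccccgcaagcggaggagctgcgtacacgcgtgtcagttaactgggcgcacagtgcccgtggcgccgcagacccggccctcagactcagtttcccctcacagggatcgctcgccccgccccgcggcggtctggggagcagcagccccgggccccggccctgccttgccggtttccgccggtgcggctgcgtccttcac
In the CXCL10 window 3 kappaB-type matches and 1 interferon-type match were found, and in the EBI3 window 2 kappaB-type matches. The LTA and TRAF1 windows hold neither set of letters. The kappaB-type letters occurred in 4678 of 27305 promoter windows (17.1%), in 5 of the 16 fallen genes with a window (31.2%) and in 2 of the 4 risen genes. The interferon-type letters occurred in 1927 windows (7.06%), in 3 of the 16 (18.8%) and in 1 of the 4. These are matches of letters in a short window and not measured binding.

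Among 39 listed NF-kB targets 32 were measured, of which 6 fell and none rose: CCR7, LTA, CXCL10, TRAF1, MIR155HG and EBI3. CCR7 and CXCL10 were also counted in the chemokine list, LTA and TRAF1 in the TNF list and EBI3 in the cytokine list. The counts of these lists are therefore not separate. Of all genes tested 0.177% fell. The median difference of the 32 was −0.65, and 30 lay below 0, where 51.1% of all genes did. The median was −0.50 under hairpin A, −0.89 under B and −0.61 under C, and −0.58 against the set 2 controls. CD83, a surface marker of activated B cells and dendritic cells, differed by −1.03 without passing (limma adjusted p = 0.0569). TNFAIP3, which encodes the NF-kB inhibitor A20, read 7.05, 6.07 and 5.95 against 8.28 in set 1 and 8.82 and 8.97 in set 2, below every control on every hairpin, but missed the threshold (−1.92 ± 0.44, limma adjusted p = 0.133). The subunit genes themselves gave −1.11 for NFKB2, −0.38 for NFKB1, −0.13 for RELB and −0.06 for REL, none of which passed.

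A list of genes known to be induced by LMP1 in B cells gave a median of −0.91, with 7 of 26 measured genes fallen and none risen. Of all genes tested 0.177% fell. All gene lists used here, this one and the NF-kB list included, were chosen with earlier results of these data known. Their counts and medians therefore describe the listed genes and are not separate support for a pattern. The LMP1 list shares 18 genes with the NF-kB list, which is 69.2% of its own measured members and 56.2% of the NF-kB list's, so the counts are not separate. The one fallen gene it adds is BCL2. BCL2, the inhibitor of mitochondrial apoptosis, read 6.35, 6.39 and 6.47 against 7.97 in the set 1 control and 9.16 and 8.90 in set 2. The hairpins lay tightly together and below every control (−1.57 ± 0.24, limma adjusted p = 0.0110). The set 2 controls were higher than the set 1 control, and the difference from them was −2.63. Over the 18 genes of the BCL2 family the median was −0.04 and BCL2 alone passed.

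MIR155HG, the host transcript of the microRNA miR-155, read 7.99, 7.54 and 7.41 against 9.75 in set 1 (−2.10 ± 0.35, limma adjusted p = 0.0192), with 7.69 and 8.61 in set 2. One set 2 control lay among the hairpins, and the difference from the set 2 pair was −0.51. The mature microRNA, which the array does not measure, comes from chr21:25573983-25574006 on the plus strand (GRCh38.p14, RefSeq). Its sequence is shown to identify the product of the transcript, with the seed, bases 2 to 8, in capitals.
hsa-miR-155-5p: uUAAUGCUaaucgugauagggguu

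Interferon-stimulated genes were lower than the set 1 control and not lower than the set 2 controls as a list. Of 49 listed genes 32 were measured, 3 fell and none rose, the median was −0.53 and 26 lay below 0. The fallen genes were IFIT2, IFIT3 and CXCL10, and CXCL10 is also counted in the NF-kB and chemokine lists. Of all genes tested 0.177% fell and 51.1% lay below 0. By hairpin the medians were −0.64, −0.42 and −0.49, and against the set 2 controls the median was 0.16. IFIT3, an interferon-induced antiviral protein, read 5.20, 5.38 and 5.31 against 7.36 in set 1 and 5.46 and 5.79 in set 2 (−2.06, limma adjusted p = 0.0192). The set 2 controls lay just above the hairpins, at a difference of −0.33. IFIT2 read 5.67, 6.01 and 5.20 against 7.65 and then 6.85 and 6.28 (−2.03, limma adjusted p = 0.0330, and −0.94 from the set 2 controls, limma adjusted p = 0.0299). The related IFIT1 differed by −1.22 and OAS2, which senses double-stranded RNA, by −0.88, and neither passed (limma adjusted p = 0.613 and 0.378). Against the set 2 controls they differed by 0.01 and 0.29, the opposite sign.

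Surface molecules of B cells were next. SLAMF1, a self-binding receptor of activated lymphocytes, read 6.36, 5.14 and 5.16 against 7.99 in set 1 and 8.64 and 9.08 in set 2. Hairpin A left more of it than B and C, and all 3 lay below every control (−2.44 ± 0.41, limma adjusted p = 0.0201, and −3.31 from the set 2 controls). CD69, an early activation antigen, read 7.27, 6.87 and 7.28 against 8.87 in set 1 (−1.73, limma adjusted p = 0.0110). The set 2 controls, at 7.01 and 7.04, lay among the hairpins, and the difference from them was 0.11. FCRL4, an Fc receptor-like protein of memory B cells, read 4.23, 4.66 and 4.48 against 6.48, with 4.99 and 4.30 in set 2 (−2.02, limma adjusted p = 0.0330). It was detected on 1 of the 3 hairpin arrays and 1 of the 2 set 2 controls, so that difference rests on hairpin levels at background. Both shCREM arrays, at 7.79 and 6.86, detected FCRL4.

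The list of B cell surface genes had 38 of 45 members measured, of which 3 fell and 1 rose, with a median of −0.32. The 3 were SLAMF1, CD69 and MS4A1 itself, the gene the hairpins target, and the 1 was MME. FCRL4 is not on this list. Of all genes tested 0.177% fell and 0.0422% rose. The antigen receptor components CD79A and CD79B differed by 0.22 and 0.30, and neither passed. Against the set 2 controls the values were −0.19 and 0.37. In the MS4A family 2 of 16 genes were measured, MS4A1 and MS4A7, and the latter gave −1.51 without passing (limma adjusted p = 0.427).

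The remaining fallen genes have varied roles. SRGN, the granule proteoglycan serglycin, read 9.11, 8.48 and 8.62 against 10.51 in set 1 and 9.61 and 10.33 in set 2 (−1.77, limma adjusted p = 0.0236). SAMSN1, an adaptor that restrains B cell activation, read 5.75, 5.61 and 5.43 against 7.28 and then 6.95 and 6.80 (−1.68, limma adjusted p = 0.0192). Both were below every control on every hairpin, and a second SRGN probe, at −1.98, passed on its own (limma adjusted p = 0.014). It was the only one to do so of 15 further probes for 10 called genes, all of which had the same sign as the probe used.

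PLGRKT, a plasminogen receptor, read 7.60, 7.36 and 7.67 against 8.73 in set 1 and 9.16 and 8.93 in set 2 (−1.18, limma adjusted p = 0.0474). LITAF, a protein of late endosomes and lysosomes, read 7.80, 8.23 and 8.31 against 9.26 in set 1, with the lower of the set 2 controls at 9.86 (−1.15, limma adjusted p = 0.0357). Both again lay below every control on every hairpin. The long non-coding RNA LINC00158 differed by −2.18 (limma adjusted p = 0.0236), with set 2 controls at 5.36 and 5.77 and hairpins between 4.71 and 5.33.

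Dim genes need separate wording. DMRTC2, a DM-domain gene of the testis, was detected on no shMS4A1 array and read 6.21 in the set 1 control, where it was at least 3.29-fold higher (limma adjusted p = 0.00535). It read 4.33 and 4.66 in the set 2 controls and 4.27 and 4.24 under shCREM, so the set 1 control stood above all other 11 arrays. SLCO2B1, an organic anion transporter, read 4.53, 4.59 and 4.46 against 6.42 in set 1 and 4.46 and 4.30 in set 2. It was detected on 1 of the 3 hairpin arrays and on neither set 2 control. Its difference from set 1 of −1.89 (limma adjusted p = 0.0135) thus rests on hairpin levels at background, and its order against set 2 carries no information. Unlike DMRTC2, SLCO2B1 was detected on both shCREM arrays, at 6.80 and 6.23.

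Of the 5 genes that rose, MME and DEF8 belong to the list of germinal centre genes. None of the 5 rises remained called when only the 6 arrays or only set 1 were fitted, or without hairpin A or C. MME, which encodes the germinal centre surface peptidase CD10, read 9.99, 10.04 and 10.17 against 9.02 in the set 1 control (1.05 ± 0.20, limma adjusted p = 0.0493), and 9.92 and 9.98 in set 2. The set 2 controls lay just under the hairpins, at a difference of 0.12. HMCES, which shields abasic sites in DNA, read 10.35, 9.93 and 10.49 against 8.71 (1.55 ± 0.27, limma adjusted p = 0.0236), and the set 2 controls, at 9.85 and 10.53, spanned the hairpins.

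DEF8 read 10.48, 10.11 and 10.28 against 8.89 in set 1 and 8.61 and 9.42 in set 2 (1.41 ± 0.26, limma adjusted p = 0.0330). ABR read 9.33, 9.42 and 9.54 against 8.21 and then 9.12 and 8.52 (1.21, limma adjusted p = 0.0383). Both were above all 3 controls on every hairpin. ACTL8, an actin-like gene, read 5.94, 6.15 and 6.25, was not detected in the set 1 control and was at least 2.93-fold higher under shMS4A1 (limma adjusted p = 0.0330), with set 2 controls at 4.85 and 4.61.

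**Figure D3:**
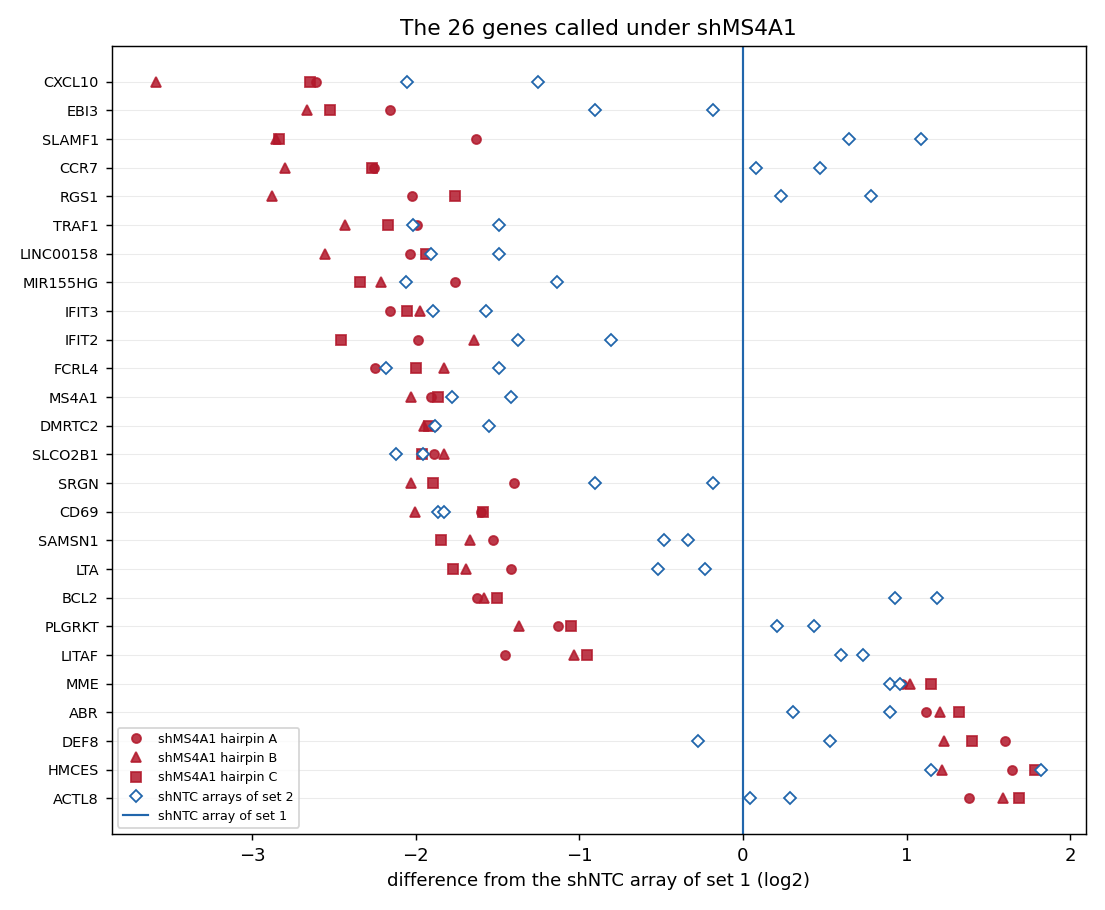
Difference of each array from the shNTC array of set 1 (log2, horizontal axis) for the 26 called genes, with hairpins A, B and C in red, the 2 shNTC arrays of set 2 as open diamonds and the set 1 control as the line at 0. For SLAMF1, CCR7, RGS1, BCL2, PLGRKT and LITAF the set 2 controls lie to the right of that line, and for MS4A1, TRAF1, CD69 and SLCO2B1 among others they lie near the hairpins.

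No gene of antigen presentation passed the test, where 0.177% of all genes tested fell and 0.0422% rose. All 14 measured MHC class II genes, of 17 listed, lay below 0, where 51.1% of all genes did. Their median was −0.57, with hairpin medians of −0.48, −0.63 and −0.67, and none passed. The median against the set 2 controls was −0.30. HLA-DQB1 read 8.02, 7.24 and 7.14 against 8.88 in set 1 and 8.65 and 8.68 in set 2 (−1.42 ± 0.34, limma adjusted p = 0.163). HLA-DOA, which modulates peptide loading, differed by −0.99 (limma adjusted p = 0.127) and HLA-DPA1 by −0.69 (limma adjusted p = 0.128). Probes for HLA genes can read more than one near-identical gene or allele, so values for single HLA genes are uncertain. For the 16 measured MHC class I and processing genes the median was −0.18, and HLA-C, at 0.24, and NLRC5, at 0.17, lay above 0.

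Genes of antigen receptor signalling and of calcium entry, the processes in which CD20 itself has been placed, showed no call. Calls were rare over all genes tested (0.177% fell and 0.0422% rose, with 51.1% below 0). Their absence from lists this short therefore says little. The 27 measured receptor signalling genes had a median of −0.02, with 14 below 0, and the 21 measured calcium genes −0.09, with 12 below 0. The kinase gene LYN had the smallest p of the first list (−1.01, limma adjusted p = 0.378). Transcription factors of B and plasma cells, 26 measured, had a median of −0.07 and no call. BATF, an activation factor among them, read 5.60, 5.99 and 5.96 against 7.61 in set 1 and 7.69 and 6.22 in set 2, and did not pass (−1.76, limma adjusted p = 0.399).

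Germinal centre genes lay on the other side of 0. Of 15 measured genes 12 were above 0, 2 rose and none fell, and the median was 0.37, against −0.01 over all genes. Of all genes tested 0.0422% rose and 51.1% lay below 0. Against the set 2 controls the median was 0.12. CD38, a germinal centre and plasma cell ectoenzyme, differed by 0.81 (limma adjusted p = 0.348) and BCL6, the repressor that defines the germinal centre programme, by 0.37 (limma adjusted p = 0.902). Against the set 2 controls these values had the opposite sign, −0.53 for CD38 (limma adjusted p = 0.043) and −0.90 for BCL6 (limma adjusted p = 0.0014). SERPINA9, also on the list, was lower than the set 1 control on each hairpin without passing (−0.87, limma adjusted p = 0.399). This was the lowest value of the list, and against the set 2 controls it was −0.62 (limma adjusted p = 0.0366).

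**Figure D4:**
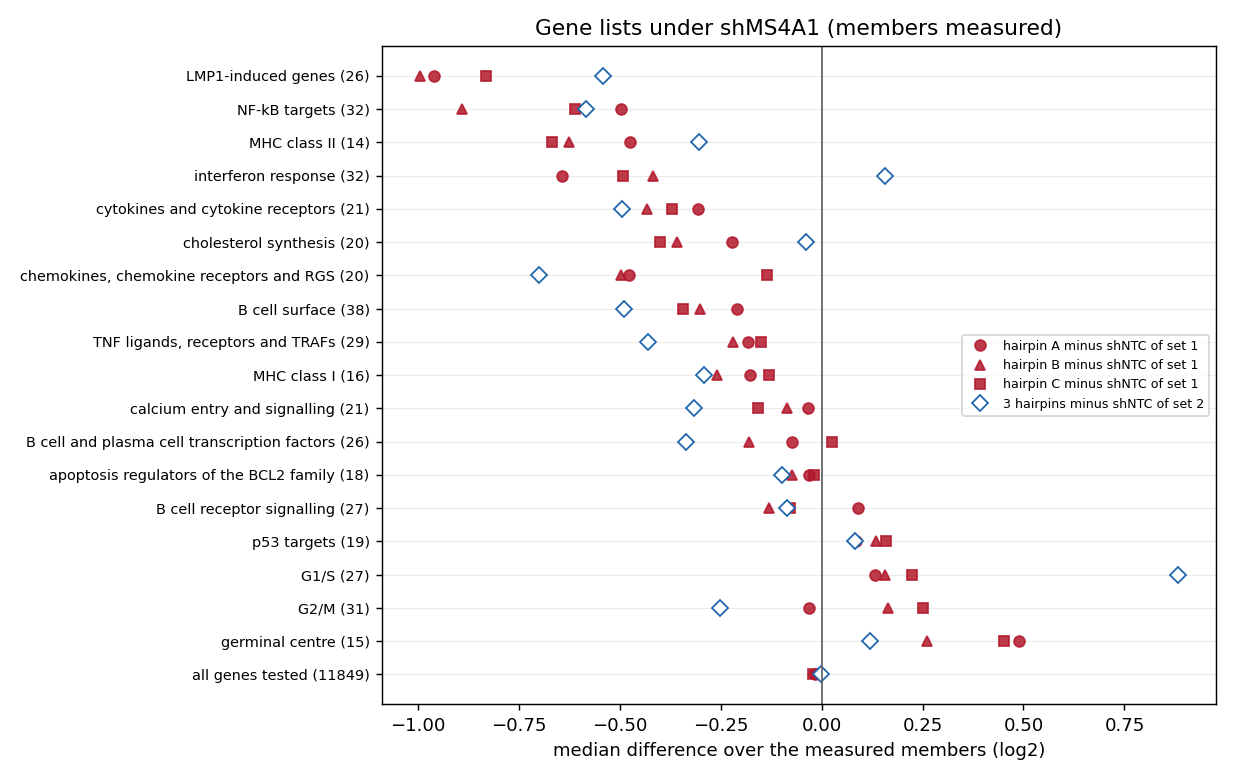
Median difference (log2, horizontal axis) over the measured members of each gene list, with members in brackets, for hairpins A, B and C against the shNTC array of set 1 in red and for the mean of the hairpins against the set 2 controls as open diamonds. LMP1-induced genes, NF-kB targets and MHC class II genes lie below 0 against both sets of controls, whereas interferon response genes lie below 0 against set 1 and at 0.16 against set 2.

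No gene separated the 3 hairpins by a limma F-test (0.0% of 11849), with a smallest adjusted p of 0.22 and 585 genes at an unadjusted p under 0.05. This test takes its spread from the repeated arrays of set 2, those of MBD2 knockdown and shNTC, since each hairpin has 1 array. The median SD between hairpins was 0.185 over all genes and 0.218 over the 26 called genes, and the median absolute difference was 0.220 between A and B, 0.209 between A and C and 0.193 between B and C. The 2 shNTC arrays of set 2 differed by a median of 0.296. Of the fallen genes 12 were lowest on hairpin B, 4 on A and 5 on C.

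Genes with the smallest p in the F-test each had 1 array apart from the other 2, and none passed. TSEN34, a subunit of the tRNA splicing endonuclease, read 8.79, 10.24 and 10.33, and ADAM12, a metalloprotease, 4.37, 6.64 and 4.49 (limma F-test adjusted p = 0.220 for both). ANAPC13, a subunit of the anaphase-promoting complex, read 10.97, 11.22 and 9.94 and TPRG1L 9.02, 8.91 and 7.39 (limma F-test adjusted p = 0.243 for both). IRX5, a homeobox gene, read 4.39, 4.56 and 6.29 (limma F-test adjusted p = 0.482).

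Taken one hairpin at a time, with no test, 217 genes (1.83%) were 2-fold or more below the set 1 control under hairpin A and 126 (1.06%) that far above it. Under hairpin B the numbers were 185 (1.56%) and 103 (0.869%), and under hairpin C 171 (1.44%) and 112 (0.945%). Every hairpin thus had more genes 2-fold lower than higher, against the same control array. When each hairpin was left out in turn, BCL2, CCR7, CD69, CXCL10, DMRTC2, LTA and RGS1 remained called, while the total fell from 26 to 17 without A, 9 without B and 7 without C.

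The comparison rests on 1 control array, and the other shNTC arrays show how far controls differ. The set 2 controls were higher than the set 1 control for 375 genes (3.16%) and lower for 546 (4.61%) at a limma adjusted p under 0.05, with HILPDA and DDIT4, which hypoxia induces, among the first and VCP and TOMM40 among the second. The median absolute difference was 0.343 between the controls and 0.197 between shMS4A1 and the set 1 control. Of the 21 fallen genes, 11 passed between the controls, 10 of them lower in set 2 and BCL2 higher. The set 1 control was the highest of 12 arrays for 7 fallen genes, CXCL10, LTA, EBI3, IFIT3, DMRTC2, SRGN and SAMSN1 (5.71% of all genes), and the lowest of 12 for 4 of the 5 risen genes (4.73% of all genes).

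Both set 2 controls lay above all 3 shMS4A1 arrays for 16 of the 21 fallen genes, where this held for 24.3% of all genes. They lay below them for 4 of the 5 risen genes, all but HMCES, against 24.1% of all genes. Against the set 2 controls 19 of the 21 fallen genes had a negative difference, with CD69 and SLCO2B1, which is at background there, the exceptions, and 12 passed at a limma adjusted p under 0.05. Those fits also hold every difference between the naming sets, and 2834 genes passed in them. Within set 1, both shCREM arrays lay above all 3 shMS4A1 arrays for 20 of the 21 fallen genes, DMRTC2 being the exception, against 18.4% of all genes. The called genes were picked by their values on the shMS4A1 arrays and the set 1 control. Counts of other arrays above or below those same arrays would therefore exceed the shares over all genes in any case. They are not separate support for the calls, and the same holds for the counts of the highest and lowest array. What part the single control had in each call was not tested.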

How the data were processed

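The authors deposited a table of raw signal, an intensity on a linear scale, with a detection p-value per probe and array, per the file headers, and a table of processed intensity values. The processed values were normalized separately within each naming set, judged by their distributions, and served as an alternative, as log2 of the value plus 16. No software for image reading or normalization is named in the sources used here.

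The tables name probes differently, so probes were paired by their values on the 12 arrays. Each of 48105 complete probes had a unique match, at a distance of at most 0.0566 against 0.0760 to the next probe. By the supplied platform annotation 30113 probes carried 1 symbol, 8 several and 17984 none.

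Raw intensities were corrected and quantile-normalized with neqc (limma 3.58.1, R 4.3.3, offset 16, background inferred from detection p-values). Of 22678 detected probes 15940 had 1 symbol, and the probe with the highest mean over the 6 arrays stood for a gene. limma's linear model with an intensity trend was fitted to all 12 arrays with group and naming set, two-sided, with Benjamini-Hochberg adjustment over 11849 genes and a threshold of 0.05. The control is 1 array and was assumed to vary like the other groups. For a gene undetected on one side, a lower bound of the fold sets the other side's mean against the higher of its own level and the lowest detected level on each undetected array. The fit was tested on simulated data.

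Genes were named by rule: MS4A1, CCR7, CXCL10 and LTA, up to 25 called genes in each direction that moved on 3 of 3 hairpins, up to 4 members of a list with the smallest p, and those with the 5 smallest p between hairpins and, in each direction, between controls. CD83, TNFAIP3, NFKB1, NFKB2, REL, RELB and IFIT1 were added after their values were seen. The samples and lists were chosen with earlier results of these data known.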

Additional observations from a re-analysis of the deposited data

How the results depend on the processing

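The 26 calls became 44 with no detection filter, 14 with the mean of a gene's probes, 17 with the 6 arrays alone, 6 with set 1 alone, 307 with sets pooled and 12 with no intensity trend, and 7 to 47 when single arrays were left out. With the set 2 controls, an alternative chosen after seeing the data, 2834 genes passed. CCR7, CXCL10 and LTA remained called under each of the 22 planned settings. The MS4A1 difference was −1.16 with the mean of probes, −0.87 with sets pooled and −0.34 against set 2, and −1.97 to −1.89 when single arrays were left out, and its limma adjusted p was 0.00178 to 0.178 over the planned settings. Against set 2, CD69 gave 0.11, BCL6 −0.90 and CD38 −0.53, the opposite sign to the comparison with set 1, as did IFIT1, OAS2, CD79A and CDKN1A, none of which was called against set 1. SLCO2B1 gave 0.15, between levels at background. The 921 genes different between the controls became 446 without shNTC 1 of set 2 and 1530 without shNTC 2. Between hairpins, 0 genes passed, against 1 with the authors' values, 2 with no detection filter, 2 with the 6 arrays alone and 0 to 13 when single arrays were left out. The cause of these changes was not tested. The shNTC array of set 1 cannot be left out, the hairpin test has no residual degrees of freedom in set 1 alone, and the control comparison was not run with the authors' values, set 1 alone or pooled sets. The number of arrays limits the precision, and signal near background limits DMRTC2, SLCO2B1, FCRL4 and ACTL8. No paired analysis was possible because the letters A, B and C name hairpins and the single shNTC of set 1 carries no number.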

Other observations

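Cell cycle and metabolic genes showed no call between shMS4A1 and the set 1 control. With 0.177% of all genes tested fallen and 0.0422% risen, this says little about lists this short. The 27 measured G1/S genes had a median difference of 0.16 and the 31 measured G2/M genes 0.18, with 8 below 0 in each list. Against the set 2 controls the medians were 0.88 and −0.25, so the G2/M median changed sign with the control. The 19 measured p53 targets had a median of 0.04, while CDKN1A, the cell cycle inhibitor p21 among them, read 8.12, 8.52 and 8.85 under the hairpins, 9.69 in the set 1 control and 8.80 and 8.11 in set 2 (−1.20, limma adjusted p = 0.271, and 0.04 against set 2). Of the 20 measured cholesterol synthesis genes 18 lay below 0, where 51.1% of all genes did. Their median was −0.39 against set 1 and −0.04 against set 2.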
